A study of Mus musculus with 8 samples.

Results

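Oxidative phosphorylation was followed gene by gene in endothelial cells of the neonatal mouse brain, from pups with an endothelial deletion of the glucose transporter GLUT1 and from wild-type pups. The set held 56 genes, 13 encoded by the mitochondrial genome (symbols starting with mt-) and 43 by the nucleus, out of 25700 genes in the count tables. Members were given by symbol and found through the Ensembl identifiers of GENCODE M21 on the mouse build GRCm38. All 56 had a row. The cells came from GLUT1EC-/- pups (KO, n = 4), in which the glucose transporter gene Slc2a1 was targeted in endothelial cells (EC), and from wild-type pups (WT, n = 4). Every pup was C57BL/6 at postnatal day 6, and its brain endothelial cells were sorted by flow cytometry into lysis buffer without culture. The driver of the endothelial deletion is not given in the sources used here. Each library came from a separate pup, so the p-values measure the spread between pups.

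Oxidative phosphorylation makes ATP by passing electrons from NADH and succinate along complexes I to IV of the inner mitochondrial membrane to oxygen, while the protons pumped on the way drive the ATP synthase, complex V. Complexes I, III, IV and V are each built from subunits of both genomes, and complex II from nuclear genes alone. The mitochondrial genome is transcribed on both strands into long precursors that are cut into separate RNAs, and all of its protein-coding genes except mt-Nd6 are read from the heavy-strand transcript. Nuclear subunits are transcribed as ordinary genes and imported as proteins. Endothelial cells are known to draw much of their ATP from glycolysis, and GLUT1 is the main carrier of glucose across the blood-brain barrier.

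Total counts were 20.9 to 40.8 M (M for mega) in KO libraries and 25.9 to 114 M in WT libraries. In KO pup 1 only 13624 genes were detected, whereas each other library had between 15756 and 17082. Slc2a1 had 1386, 1511, 1528 and 1602 CPM (reads counted for a gene out of 1e+06 in the library) in KO pups, against 3726, 2238, 3420 and 2792 CPM in WT pups. It fell by 1.01 on the log2 scale (SE 0.14, adjusted p = 0.00619, edgeR), and remained well detected in every KO pup. By the sample titles the 4 KO pups and WT pup 5 shared a cage and WT pups 1 to 3 came from another. A second set of labels places WT pup 3 instead of WT pup 5 with the KO pups. By both sets all KO pups came from the same cage, with a single WT pup beside them. Genotype and cage thus largely coincide, and a difference between cages cannot be told apart from one between genotypes. Summed markers of endothelial cells lay at 13088 to 14673 CPM in KO and 13884 to 14867 CPM in WT. Those of astrocytes lay at 322 to 439 CPM in KO and 329 to 391 CPM in WT, with a median log2 fold change of 1.06 over 8 markers, of which edgeR called 0. Their part in the values of the members was not tested. Those of microglia lay at 712 to 1909 CPM in KO and 741 to 1271 CPM in WT. Mural markers ranged from 1566 to 2370 CPM in KO and from 426 to 2375 CPM in WT. Erythroid markers ranged from 569 to 1001 CPM in KO and from 522 to 1630 CPM in WT. The part of these cells in the values of the members was not tested either. No marker of any of the 8 cell types examined was at 0 in all libraries. These are bulk samples, so fewer cells of a type and less RNA per cell cannot be told apart.

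Before the levels, the sequence of the mitochondrial members had to be set beside other annotated genes, because 6 of the 13 had no or almost no reads. No read was counted in any of the 8 libraries for mt-Co2 and mt-Co3, both core subunits of complex IV, for mt-Nd3 and mt-Nd4l, both subunits of complex I, or for mt-Atp8, a subunit of complex V. The complex V subunit gene mt-Atp6 had 1 read, in KO pup 4. With 0 reads a level of up to 3 counts remains possible from counting error alone, equal to 0.144 CPM in KO pup 1, the library with the lowest total, and 0.0263 CPM in WT pup 2, the one with the highest.

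Each member's main transcript was cut into all its overlapping stretches of 100 bases, the length of a read here, and each stretch was looked for in every other annotated transcript. For mt-Nd3, mt-Nd4l, mt-Co2, mt-Co3 and mt-Atp6, between 97.6% and 99.9% of the stretches also occurred in an annotated pseudogene within the region chr1:24611535-24616197 (minus strand), where a piece of the mitochondrial genome lies in the nuclear genome. The copies of mt-Nd4l (Gm10222), mt-Co2 (Gm28661), mt-Co3 (Gm28437) and mt-Atp6 (Gm10925) were 100% identical to the member over their whole length, and that of mt-Nd3 (Gm28438) differed at 1 of 345 bases. None of these pseudogenes had a row of counts. The same held for every other annotated pseudogene found to share stretches with a member, so this absence is not particular to these copies. A read from such a stretch has the same letters at both places. Whether reads with more than 1 place were counted is not given in the sources used here, and the part of this sharing in the missing counts was not tested. The sequence of mt-Nd4l (GRCm38, chrM:9877-10173, plus strand), which encodes a complex I subunit, is shown because nearly all of it is shared. Capitals mark the bases inside stretches identical to Gm10222 (chr1:24612407-24612700, minus strand).
mt-Nd4l: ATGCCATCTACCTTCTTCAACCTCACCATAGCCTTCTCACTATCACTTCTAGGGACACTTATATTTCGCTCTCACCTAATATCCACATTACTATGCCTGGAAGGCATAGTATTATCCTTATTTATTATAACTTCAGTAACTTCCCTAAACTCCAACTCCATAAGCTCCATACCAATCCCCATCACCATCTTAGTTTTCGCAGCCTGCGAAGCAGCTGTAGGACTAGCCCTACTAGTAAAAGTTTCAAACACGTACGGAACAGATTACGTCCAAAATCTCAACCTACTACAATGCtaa

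In mt-Nd4 (chrM:10167-11544, plus strand), a complex I subunit gene that did have counts, the sharing stopped within the gene. Its first 876 bases were identical to Gm28439 and the rest was not found in another annotated transcript, so that 60.8% of its stretches were shared. The 60 bases at chrM:11013-11072 are shown across that boundary, with shared bases in capitals.
mt-Nd4 boundary: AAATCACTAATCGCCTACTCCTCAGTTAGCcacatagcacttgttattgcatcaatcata

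The largest complex IV subunit gene, mt-Co1 (chrM:5328-6872, plus strand), resembled mt-Nd4 in being shared in part, at 30.8% of its stretches. Of the 446 shared stretches, 380 occurred in Gm29216 on chromosome 1 and 80 in Gm13340, a pseudogene on chromosome 2, with some in both. Over 492 aligned bases its chromosome 1 copy, Gm29216, differed at 6, all within the 32 bases below, where capitals mark the bases that differ. The corresponding windows of mt-Nd3 and Gm28438 follow, with their 1 difference. The places shown are chrM:6381-6412 and chr1:24616166-24616197 for the first pair, and chrM:9459-9490 and chr1:24613088-24613119 for the second, with the chromosome 1 copies on the minus strand.
mt-Co1: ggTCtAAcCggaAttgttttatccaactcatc
Gm29216: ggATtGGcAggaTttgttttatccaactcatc
mt-Nd3: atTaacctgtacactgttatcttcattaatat
Gm28438: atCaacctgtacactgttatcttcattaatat

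Among the members without reads, mt-Atp8 (chrM:7766-7969, plus strand) was the only one with no stretch that occurred in another annotated transcript. Its last 43 bases overlap mt-Atp6. The copies of its neighbours mt-Co2 and mt-Atp6 on chromosome 1 are 233 bases apart with no annotated gene between them. The genome sequence of that gap was not used here, so whether it holds an unannotated copy of mt-Atp8 is not known. The whole coding sequence is shown because it is the member whose missing reads go with no annotated copy.
mt-Atp8: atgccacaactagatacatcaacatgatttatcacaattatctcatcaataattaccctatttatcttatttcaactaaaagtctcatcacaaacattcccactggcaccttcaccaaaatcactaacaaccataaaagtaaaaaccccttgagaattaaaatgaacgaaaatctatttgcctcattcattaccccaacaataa

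The 7 members with enough counts for a test were therefore mt-Nd1, mt-Nd2, mt-Nd4, mt-Nd5 and mt-Nd6 of complex I, mt-Cytb of complex III and mt-Co1 of complex IV. None of the stretches of mt-Nd1, mt-Nd5, mt-Nd6 and mt-Cytb, and 3.19% of those of mt-Nd2, were shared. No mitochondrial subunit of complex V could be tested.

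**Figure D1:**
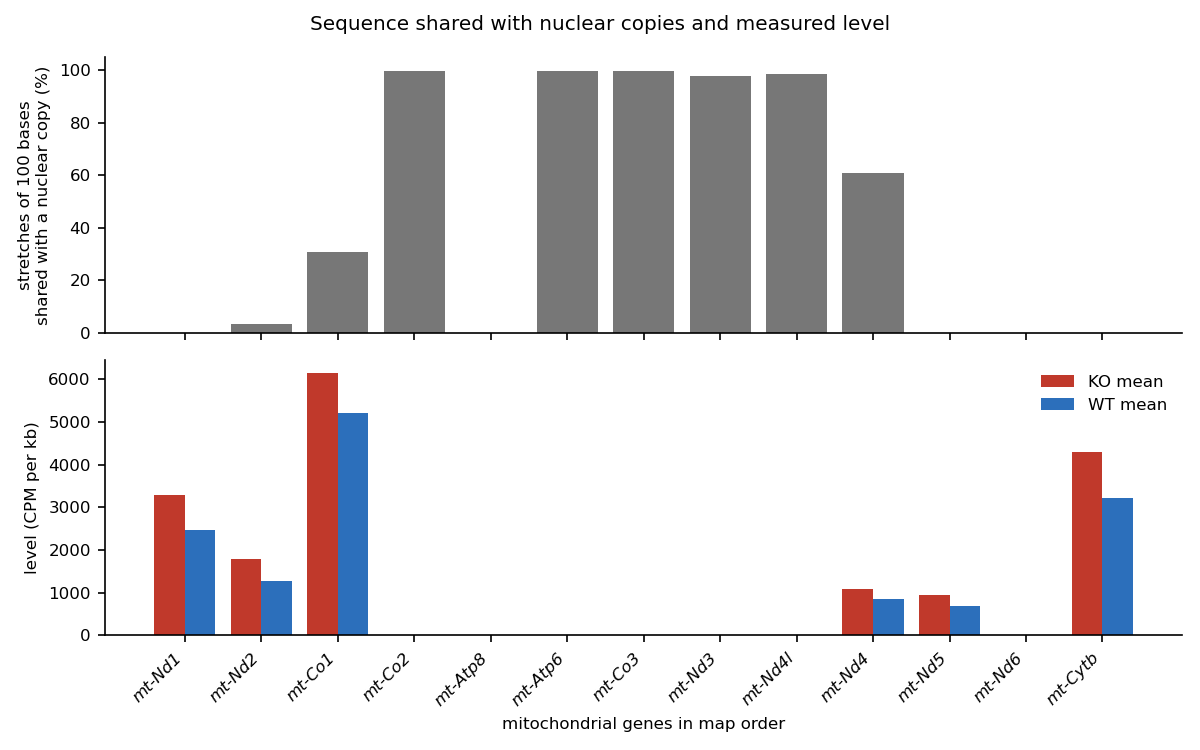
Upper panel: percent of each mitochondrial gene's stretches of 100 bases that also occur in another annotated transcript, with genes in map order. Lower panel: mean level in CPM per kb of transcript in KO (red) and WT (blue), n = 4 pups each; the 5 genes with 97.6% or more of their stretches shared, and mt-Atp8, have no visible bar, and mt-Nd6 averaged 5.50 CPM per kb in KO and 6.02 CPM per kb in WT.

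Per length of transcript, mt-Co1 was the most abundant mitochondrial member, at 6148 CPM per kb in KO and 5196 CPM per kb in WT. It was followed by mt-Cytb at 4296 CPM per kb in KO and 3212 CPM per kb in WT, and by mt-Nd1 at 3295 CPM per kb in KO and 2478 CPM per kb in WT. The other complex I members came lower. The level was 1799 CPM per kb in KO and 1268 CPM per kb in WT for mt-Nd2. It was 1090 in KO and 847 in WT for mt-Nd4, and 944 in KO and 697 in WT for mt-Nd5, in the same unit. These levels divide by the whole transcript. If no read from shared sequence was counted, which is not known, the same counts could be divided by the number of unshared stretches alone. A transcript holds fewer stretches than bases, so the result is not comparable with the levels per kb. In CPM per k stretches (k for kilo), mt-Nd4 would have 2992 in KO and 2325 in WT. This would be above mt-Nd2, at 2054 in KO and 1448 in WT. The order of mt-Nd4 and mt-Nd2 is therefore uncertain. The light-strand gene mt-Nd6 was far below all of these.

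The 6 tested heavy-strand members were all higher in KO cells, by 0.24 to 0.50 on the log2 scale, and none passed the edgeR threshold (adjusted p of 0.05 over 14154 genes). Against this, edgeR called 55 of the 14154 genes (0.389%), 39 of them higher in KO (0.276%). The groups did not overlap for 5 of the 7 tested mitochondrial members, always with KO above WT, where 7.19% of all tested genes did not overlap in either direction and 3.77% with KO above WT. An unadjusted p under 0.05 was found for 6 of the 7, and for 11.1% of all tested genes. The 6 heavy-strand members are cut from a shared transcript and were measured in the same pups. They are therefore not independent, and their number does not add separate evidence.

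Among the complex I members, which carry the membrane arm of the enzyme, mt-Nd1 (ENSMUSG00000064341, chrM:2751-3707) had 3502, 3039, 2802 and 3269 CPM in KO pups 1 to 4, against 2461, 2518, 2277 and 2230 CPM in WT pups 5, 1, 2 and 3. Every KO pup was above every WT pup. Its log2 fold change was 0.41 (SE 0.08, 95% interval 0.23 to 0.59, adjusted p = 0.0675, edgeR). The next gene on the map, mt-Nd2 (ENSMUSG00000064345, chrM:3914-4951), had 2142, 1769, 1657 and 1900 CPM in KO pups, against 1323, 1482, 1175 and 1286 CPM in WT pups. The groups were again apart, with KO pup 1 highest and WT pup 2 lowest, and the log2 fold change was 0.50 (SE 0.10, 95% interval 0.29 to 0.71, adjusted p = 0.0600, edgeR), the largest among the members.

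For mt-Nd4 the values were 1623, 1450, 1334 and 1601 CPM in KO pups and 1229, 1249, 1002 and 1188 CPM in WT pups, again without overlap. Its log2 fold change was 0.36 (SE 0.09, adjusted p = 0.147, edgeR). For mt-Nd5, the last heavy-strand member of complex I on the map, they were 1902, 1611, 1519 and 1854 CPM in KO pups and 1429, 1325, 1193 and 1136 CPM in WT pups. The lowest KO pup was above the highest WT pup here too, and the log2 fold change was 0.44 (SE 0.10, adjusted p = 0.0958, edgeR).

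The light-strand gene mt-Nd6, another complex I subunit, showed another picture at a far lower level. It had 5.18, 1.62, 3.07 and 1.552 CPM in KO pups and 2.32, 3.39, 4.77 and 2.01 CPM in WT pups. The groups overlapped throughout, with KO pup 1 highest of all and KO pup 4 lowest. The log2 fold change of -0.15 had a 95% interval of -1.14 to 0.85 (adjusted p = 0.946, edgeR), which covers the values of all heavy-strand members. With an interval this wide, a difference between the strands was not detectable.

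The complex III member mt-Cytb, which encodes the cytochrome b that carries the quinone-binding sites, had 5553, 4691, 4281 and 5135 CPM in KO pups and 3756, 3977, 3446 and 3517 CPM in WT pups. The groups did not overlap, and the log2 fold change was 0.42 (SE 0.09, adjusted p = 0.0809, edgeR). In complex IV, mt-Co1, which encodes the catalytic subunit, had 10070, 8907, 8842 and 10173 CPM in KO pups and 9039, 8088, 7906 and 7081 CPM in WT pups. Here the groups overlapped, because WT pup 5 lay above KO pups 2 and 3. With 0.24 (SE 0.08, 95% interval 0.06 to 0.43, adjusted p = 0.295, edgeR), mt-Co1 had the smallest log2 fold change of the 6 heavy-strand members. It made up 40.6% to 43.3% of the mitochondrial member counts in KO libraries and 43.1% to 47.0% in WT libraries.

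**Figure D2:**
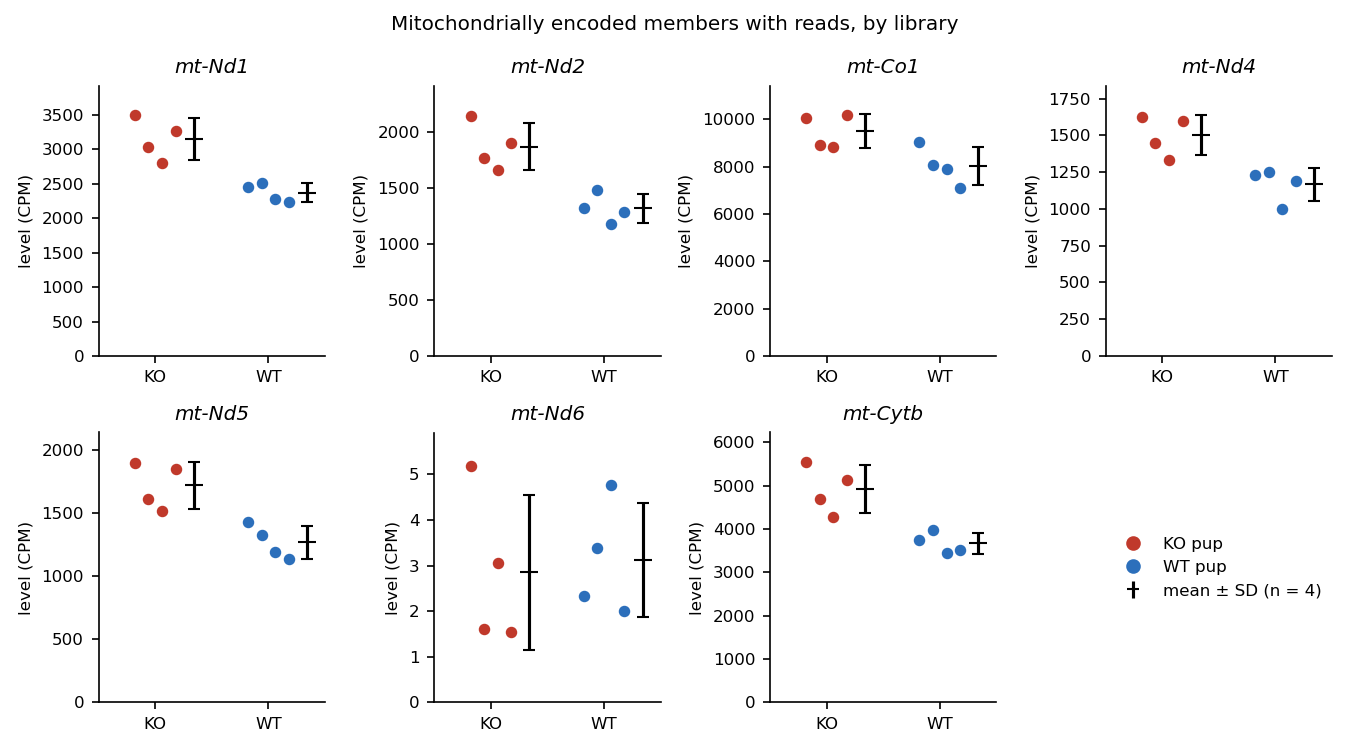
Level in CPM of the 7 tested mitochondrial members in each library, with KO pups (red) left of WT pups (blue) and mean ± SD beside them (n = 4 each). The groups are apart for mt-Nd1, mt-Nd2, mt-Nd4, mt-Nd5 and mt-Cytb, overlap through 1 WT pup for mt-Co1, and overlap throughout for mt-Nd6.

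KO pup 1, where fewer genes were detected than in any other library, was the highest KO pup for 5 of the 6 heavy-strand members. Without it the log2 fold changes were 0.36 for mt-Nd1, 0.43 for mt-Nd2, 0.32 for mt-Nd4, 0.39 for mt-Nd5, 0.36 for mt-Cytb and 0.21 for mt-Co1, and again none passed the edgeR threshold. The call depended on the test. DESeq2 called mt-Nd1 (adjusted p = 0.000339), mt-Nd2 (0.000108), mt-Nd4 (0.0108), mt-Nd5 (0.00202) and mt-Cytb (0.00101), all higher in KO, where it called 2.64% of the 13311 genes to which it gave an adjusted p and 1.19% as higher in KO. The limma-voom method called mt-Nd1 (adjusted p = 0.0439) and mt-Nd2 (adjusted p = 0.0405), where it called 0.509% of all genes and 0.353% as higher in KO. When all genes with a count were kept, edgeR called mt-Nd2 (adjusted p = 0.0430), where it called 0.452% of 18602 genes and 0.247% as higher in KO. Over 18 alternative settings the adjusted p ran from 0.000108 to 0.590 for mt-Nd2 and from 0.154 to 0.970 for mt-Co1. Set against WT pup 5 alone, their cage mate according to the titles, the 4 KO pups gave log2 fold changes of 0.36 for mt-Nd1, 0.50 for mt-Nd2, 0.29 for mt-Nd4, 0.27 for mt-Nd5, 0.39 for mt-Cytb and 0.07 for mt-Co1. In this setting only the KO pups give the spread, and the lone WT pup is assumed to vary like them. With cage by the second labels as a term they were 0.50 for mt-Nd1, 0.54 for mt-Nd2, 0.34 for mt-Nd4, 0.60 for mt-Nd5, 0.48 for mt-Cytb and 0.42 for mt-Co1. The values of mt-Nd5 and mt-Co1 thus depended on which label of the cage is right. The other cage held WT pups only and gives no value.

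The 43 nuclear members, all of which had enough counts for a test, lay close to the middle of all genes. Their median log2 fold change was 0.04, with a range of -0.24 to 0.28, beside a median of 0.00 over all 14154 tested genes and of 0.41 over the 7 tested mitochondrial members. In all, 32 had a positive and 11 a negative fold change, where 50.3% of all genes were positive. None was called by edgeR, and none by DESeq2 or limma-voom. An unadjusted p under 0.05 was found for 2, Ndufb9 and Ndufa10. The groups did not overlap for 3 (6.98%), each higher in KO, close to the 7.19% of all genes. The 95% interval of 41 of the 43 lay within a 1.5-fold difference in either direction.

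Complex I, which oxidises NADH, had 20 nuclear members in the set, with a median log2 fold change of 0.05. The membrane-arm subunit gene Ndufb9 had 57.1, 59.6, 54.8 and 63.1 CPM in KO pups, against 43.4, 50.5, 47.7 and 52.2 CPM in WT pups, without overlap. Its log2 fold change was 0.28 (SE 0.09, adjusted p = 0.244, edgeR), the largest among nuclear members. Of its stretches of 100 bases, 17.0% also occurred in the annotated gene Gm49356, so some of its reads could belong there. Gm49356 overlaps Ndufb9 on the same strand of chromosome 15 and is not a copy elsewhere. How reads in this overlap were counted is not given in the sources used here.

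Another complex I subunit gene, Ndufa10, had 86.5, 77.1, 75.9 and 80.9 CPM in KO pups, against 72.4, 68.3, 68.5 and 72.1 CPM in WT pups. The groups were apart by a small margin, and the log2 fold change was 0.19 (SE 0.07, adjusted p = 0.369, edgeR). For Ndufv2, an iron-sulfur subunit of the NADH-oxidising module, KO averaged 92.6 ± 16.1 CPM and WT 79.8 ± 9.62 CPM (SD, n = 4 each), with overlap. Negative log2 fold changes included -0.12 for Ndufa6 (54.5 ± 1.97 CPM in KO and 59.3 ± 4.70 CPM in WT) and -0.11 for Ndufa8 (74.7 ± 1.99 CPM in KO and 80.7 ± 4.94 CPM in WT), with edgeR adjusted p of 0.656 and 0.633. The most abundant per length was Ndufa4, at 173 CPM per kb in KO and 163 CPM per kb in WT. It is counted with complex I here by its name, although its protein is known in human as a subunit of complex IV.

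Complex III and its electron carrier cytochrome c had 7 nuclear members, with a median log2 fold change of 0.02. Uqcrb, a small subunit, averaged 94.3 ± 2.63 CPM in KO and 84.8 ± 7.72 CPM in WT (log2 fold change 0.15). Uqcrc1, a core subunit, averaged 196 ± 27.5 CPM in KO and 180 ± 18.3 CPM in WT (0.12), and Uqcrq, another small subunit, 59.97 ± 6.13 CPM in KO and 54.9 ± 7.02 CPM in WT (0.13). The groups overlapped for all 7. The most negative log2 fold change of the whole set was that of Cycs, the gene of somatic cytochrome c. Its levels were 6.67, 17.99, 18.4 and 19.2 CPM in KO pups and 14.7, 20.3, 19.9 and 18.7 CPM in WT pups. KO pup 1 alone was far below the other KO pups, and the log2 fold change of -0.24 (SE 0.27, adjusted p = 0.812, edgeR) became 0.01 without it. Of the stretches of Cycs, 24.7% also occurred in other annotated genes.

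Complex IV, which passes the electrons to oxygen, had 10 nuclear members, with a median log2 fold change of 0.08. Cox5a, a subunit on the matrix side, had 86.8, 88.3, 87.9 and 88.9 CPM in KO pups, against 77.0, 84.5, 71.5 and 83.9 CPM in WT pups. The KO pups lay close together and above every WT pup, with a log2 fold change of 0.15 (SE 0.08, adjusted p = 0.513, edgeR). The largest log2 fold change of the 10 was that of Cox7b, 0.18 (72.9 ± 7.21 CPM in KO and 64.4 ± 5.32 CPM in WT). Cox6a1 had 0.13 (145 ± 11.1 CPM in KO and 132 ± 24.8 CPM in WT) and Cox6b1 0.10 (113 ± 8.21 CPM in KO and 106 ± 11.7 CPM in WT), and the groups overlapped for Cox7b, Cox6a1 and Cox6b1. Cox4i1, the ubiquitous isoform of subunit IV and the most abundant nuclear complex IV member per length, had 351 CPM per kb in KO and 347 CPM per kb in WT and a log2 fold change of 0.02.

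Complex V, the ATP synthase, had 6 nuclear members and the narrowest spread, with log2 fold changes of -0.0037 to 0.06. Atp5b, which encodes the catalytic beta subunit, had 747, 749, 735 and 784 CPM in KO pups, against 741, 775, 685 and 775 CPM in WT pups, with overlap. Its log2 fold change was 0.02 (95% interval -0.13 to 0.16). For the alpha subunit gene Atp5a1 the levels were 551 ± 9.97 CPM in KO and 549 ± 6.52 CPM in WT, with a 95% interval of -0.12 to 0.13. Atp5c1, the gamma subunit of the rotor, had 189 ± 4.95 CPM in KO and 181 ± 11.5 CPM in WT. Atp5o, which encodes the stalk subunit OSCP, had 107 ± 4.44 CPM in KO and 106 ± 8.78 CPM in WT.

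**Figure D3:**
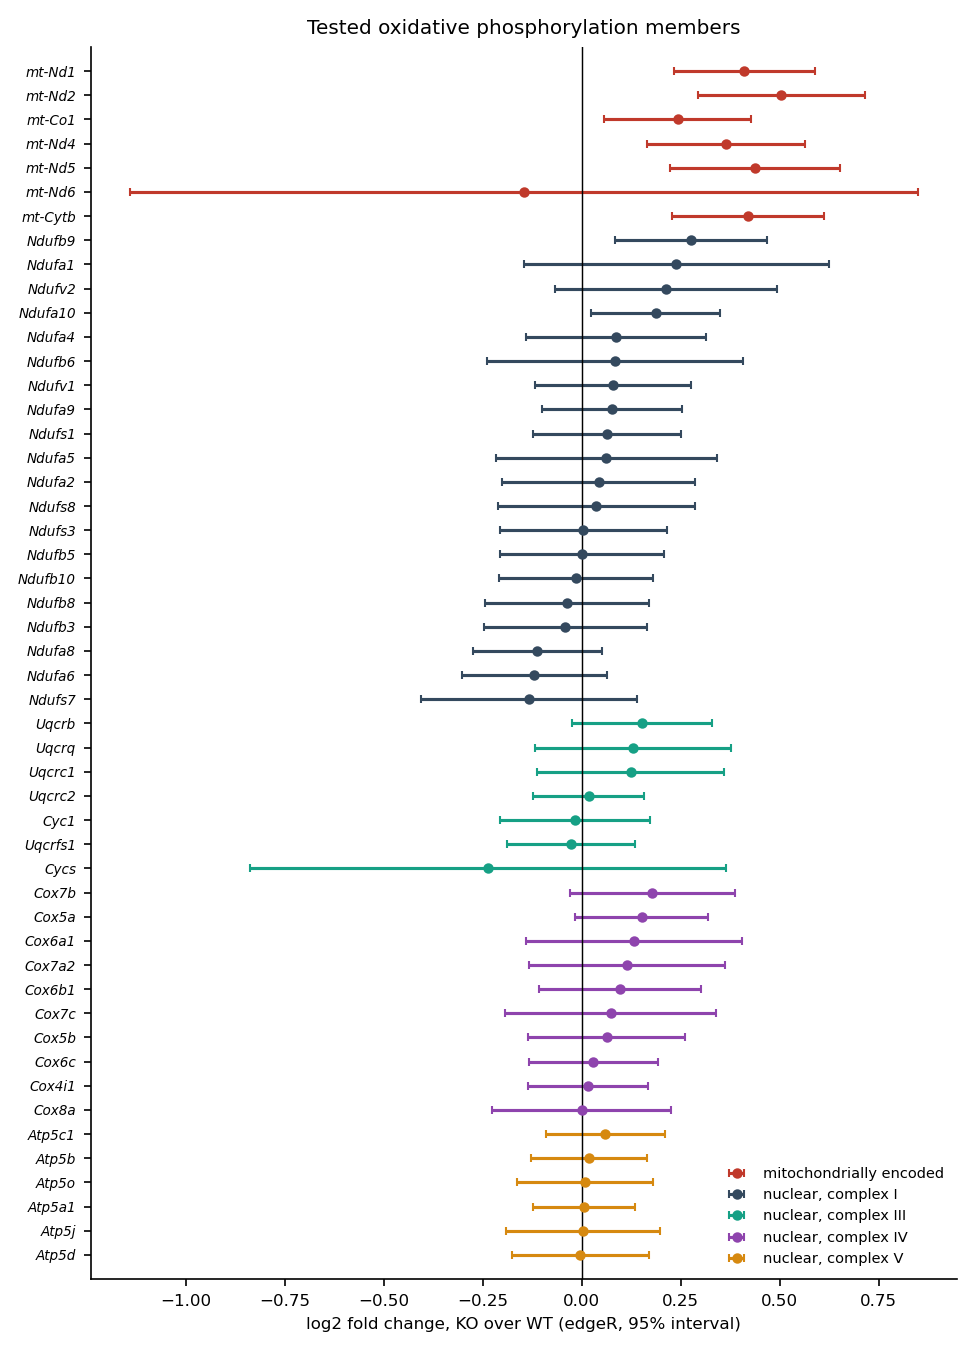
Log2 fold change, KO over WT, with its 95% interval from edgeR for the 50 tested members, the mitochondrial ones at the top and the nuclear ones below by complex. The 6 heavy-strand members lie at 0.24 to 0.50 with intervals above 0, mt-Nd6 has the widest interval, and the nuclear members lie between -0.24 and 0.28.

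The genomes were then compared within each library, where the ratio of summed counts does not depend on how libraries are scaled. Mitochondrial members took 2.48%, 2.14%, 2.04% and 2.46% of all counts in KO pups, against 1.89%, 1.87%, 1.66% and 1.68% in WT pups. Nuclear members took 0.479%, 0.471%, 0.456% and 0.499% in KO pups, against 0.441%, 0.467%, 0.425% and 0.497% in WT pups. The mitochondrial shares did not overlap and the nuclear shares did.

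The log2 ratio of mitochondrial to nuclear member counts was 2.37, 2.18, 2.16 and 2.30 in KO pups, against 2.10, 2.002, 1.97 and 1.75 in WT pups. All KO pups were above all WT pups, by a margin smaller than the spread within either group, and WT pup 5 came nearest to the KO pups. The means were 2.25 ± 0.10 in KO and 1.96 ± 0.15 in WT (SD, n = 4 each), a difference of 0.30. Without KO pup 1 it was 0.26. Set against the single WT pup of the same cage, it was 0.16 where the titles make this WT pup 5 and 0.50 where the second labels make it WT pup 3, a comparison added after seeing the data. Without mt-Co1 it was 0.38. No p-value is given, because the members were chosen with earlier results of these data known.

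By complex, the log2 ratio within the library was 2.66 to 2.90 in KO and 2.23 to 2.52 in WT for complex I, with a difference of means of 0.37. For complex III it was 2.70 to 2.95 in KO and 2.32 to 2.58 in WT, a difference of 0.36. Neither complex overlapped between groups. For complex IV the ratio was 3.12 to 3.29 in KO and 2.75 to 3.27 in WT. The means differed by 0.17. The groups overlapped, because WT pup 5 (3.27) and WT pup 2 (3.13) both lay above KO pup 2 (3.12). On the mitochondrial side complex III is mt-Cytb alone, and complex IV is mt-Co1 alone because mt-Co2 and mt-Co3 had no reads. The values of these complexes are thus those of single mitochondrial genes. On the summed CPM of KO over WT, the mitochondrial members of complexes I, III and IV stood at ratios of 1.35, 1.34 and 1.18. The nuclear members of complexes I, III, IV and V stood at 1.04, 1.04, 1.05 and 1.01.

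**Figure D4:**
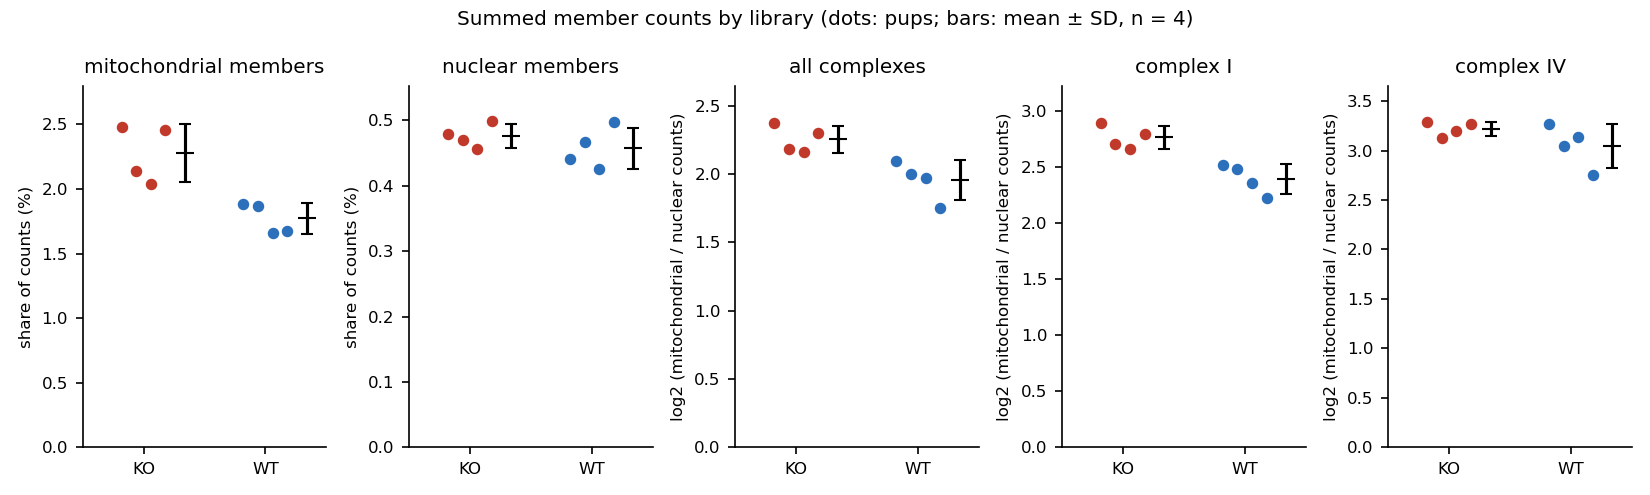
Share of all counts taken by mitochondrial and by nuclear members, and the log2 ratio of mitochondrial to nuclear member counts over all complexes, complex I and complex IV, in each KO (red) and WT (blue) library with mean ± SD (n = 4 each). The groups are apart in the mitochondrial share, at 2.04% to 2.48% in KO and 1.66% to 1.89% in WT. They overlap in the nuclear share and in complex IV, where mt-Co1 alone gives the mitochondrial counts.

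Genes around the pathway were read from lists of their own, and edgeR called no gene in any of them. Of 38 further subunit genes of complexes I, III, IV and V, 33 were tested, with a median log2 fold change of 0.03. The farthest from 0 among them was Cox6b2, a form of the complex IV subunit VIb known from testis, with 10.8, 5.93, 6.01 and 5.16 CPM in KO pups, against 1.93, 2.55, 1.19 and 2.58 CPM in WT pups. The groups were well apart at this low level, with KO pup 1 highest, and the log2 fold change was 1.76 (SE 0.34, adjusted p = 0.0636, edgeR). For its widely expressed paralogue Cox6b1, a member given above, the groups overlapped. The accessory complex I subunit genes Ndufs4 and Ndufv3 had log2 fold changes of 0.17 and 0.19, with edgeR adjusted p of 0.502 and 0.592.

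The 8 genes of complex II and its assembly had a median log2 fold change of 0.00. Sdha, the flavoprotein that oxidises succinate, averaged 188 ± 11.2 CPM in KO and 179.8 ± 8.30 CPM in WT (log2 fold change 0.07), and the assembly factors Sdhaf1 and Sdhaf2 had -0.14 and 0.05. The 42 assembly factors of the other complexes had a median of 0.0046, and for 2 of them every KO pup was below every WT pup, as for 3.43% of all tested genes. These were Atpaf2 of the ATP synthase, with 31.6 ± 0.70 CPM in KO and 37.2 ± 3.35 CPM in WT (log2 fold change -0.23, adjusted p = 0.369, edgeR), and Timmdc1 of complex I. Timmdc1 had 2.02, 7.004, 6.78 and 6.18 CPM in KO pups, with pup 1 far below the rest, against 8.43, 11.9, 7.47 and 9.57 CPM in WT pups (-0.76, adjusted p = 0.428, edgeR). Uqcc1 of complex III had a log2 fold change of 0.24 with overlapping groups.

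The 21 genes of mitochondrial transcription and DNA maintenance had a median log2 fold change of -0.0045. The groups did not overlap for 1 of them with KO higher, Tfb1m (2.60 CPM in KO and 1.98 CPM in WT on average, named after its values were seen), and for 2 with KO lower, Polg and Top1mt, where over all tested genes this held for 3.77% and 3.43%. Polg, the catalytic subunit of the mitochondrial DNA polymerase, had 73.0, 87.0, 80.4 and 76.8 CPM in KO pups, against 92.3, 107, 98.3 and 94.7 CPM in WT pups. Every KO pup was below every WT pup, and the log2 fold change was -0.31 (SE 0.08, adjusted p = 0.179, edgeR). Tk2, a thymidine kinase of mitochondria, had 0.30 with overlapping groups. Top1mt, the mitochondrial topoisomerase, had 0.576, 4.56, 4.21 and 4.49 CPM in KO pups, against 5.63, 5.94, 5.96 and 6.13 CPM in WT pups, and KO pup 1 was again far below the rest (log2 fold change -0.77, adjusted p = 0.594, edgeR). The 20 genes of mitochondrial RNA processing had a median of 0.01. Fastkd2 and Fastkd3, both RNA-binding proteins of mitochondria, had log2 fold changes of 0.52 and 0.45 with overlapping groups, and edgeR adjusted p of 0.420 and 0.470. Supv3l1, an RNA helicase of mitochondrial RNA decay, had 0.29 with overlap.

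The 78 mitochondrial ribosomal protein genes, whose products translate the mitochondrial members, had a median log2 fold change of 0.09. The groups did not overlap for 6 of them with KO higher and for 2 with KO lower, where over all tested genes the groups did not overlap with KO higher for 3.77% and with KO lower for 3.43%. Mrpl11 and Mrpl13 of the large subunit had log2 fold changes of 0.32 and 0.31, and Mrps25 of the small subunit -0.37, with edgeR adjusted p between 0.312 and 0.344. The regulators of mitochondrial biogenesis had a median of -0.05 over 14 tested of 15. Among them Pprc1, a coactivator related to PGC-1alpha, averaged 30.4 ± 3.42 CPM in KO and 39.9 ± 10.6 CPM in WT (log2 fold change -0.39, adjusted p = 0.399, edgeR). The nuclear receptor gene Esrrg had -0.81 and the transcription factor gene Myc 0.23, both with overlapping groups. The 22 genes of protein import, the inner membrane and carriers had a median of 0.04. Vdac2, a channel of the outer membrane, had a log2 fold change of 0.13, the ADP/ATP carrier gene Slc25a5 0.11 and the chaperonin gene Hspe1 -0.18, all with overlap. The mitochondrial ribosomal and transfer RNAs have no row and were thus left out.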

How the data were processed

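RNA of brain endothelial cells sorted from 8 mouse pups (4 KO, 4 WT) was sequenced as stranded mRNA libraries with single-end reads of 100 bases, per the labels' protocols. For each library the authors deposited a table with 1 raw count per gene. Reads were processed with STAR and featureCounts on GRCm38, per the submitters' processing notes. Versions, annotation release, strand setting and treatment of reads with several places are not stated in the sources used here. Groups followed the genotype in the labels.

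Counts were tested with edgeR 4.0.16 (quasi-likelihood F test, TMM scaling, R 4.3.3). Genes were kept by filterByExpr (minimum count 10, minimum total 15), leaving 14154 of 25700. Genotype was the only term, with Benjamini-Hochberg adjustment over all tested genes and a threshold of 0.05. CPM were computed with TMM factors of 0.978 to 1.03. The 95% intervals came from the same fit. The chi-square statistic per gene was at least 15.6 in all 28 pairs of libraries, so none was deposited in duplicate.

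Symbols, transcripts and coordinates came from GENCODE M21. The symbol Atp5o belongs to 2 identifiers, of which 1 had a row. The fit was tested on simulated counts. The members and lists were chosen with earlier results of these data known. Named were all mitochondrial members, the 4 members with the smallest p and the 2 most abundant per kb in each nuclear complex, Slc2a1, and 3 genes with the smallest p from each pathway list. Alternatives changed the scaling, the filter, the test (DESeq2 1.42.0, limma-voom with limma 3.58.1), the terms (cage, pup number) and the libraries.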

Additional observations from a re-analysis of the deposited data

Results flagged for a closer look

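Among 108 groups of 4 pups examined, 1 pup stood apart from the other 3 in 2, where chance alone flags about 1 in 20. Cycs, the cytochrome c gene, had 6.67 CPM in KO pup 1, against 17.99 to 19.2 CPM in the other KO pups. Cox7c, a small subunit of complex IV, had 40.6 CPM in WT pup 5, against 44.1 to 44.7 CPM in the other WT pups, and 44.4% of its stretches of 100 bases are shared with other annotated genes. Fewer genes were detected in KO pup 1 than in any other library. The part of depth and sequence sharing in these values was not tested.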

How the results depend on the processing

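The mitochondrial members kept a positive median log2 fold change in every setting tried, 0.36 to 0.45 with a pup left out, 0.29 with cage by title as a term, 0.50 with cage by the second labels and 0.40 with the pup number as a block. How many were called depended on the test, with 1 (mt-Nd2) without a filter on low counts, 5 with DESeq2, 2 with limma-voom and 0 when any pup was left out. The nuclear median was -0.062 with cage by the second labels (13 positive, 30 negative) and 0.02 to 0.09 with a pup left out, and no nuclear member was called when any pup was left out. The log2 ratio of the genomes differed by 0.16 for KO pups against their cage mate by title, by 0.50 against that of the second labels (added after seeing the data) and by 0.23 to 0.35 with a pup left out, and the mitochondrial share by 0.44 to 0.58 percentage points. Over all genes, edgeR called 84 without the filter, 16 with cage by title, 10 with cage by the second labels, 22 in KO pups against that cage mate, and 32 to 85 with a pup left out (85 without KO pup 1, 36 without KO pup 2, 32 without KO pup 3). DESeq2 called 351. The cause of these differences was not tested.

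The pup numbers do not pair the groups, since deviations of same-numbered pups correlated at -0.03, 0.03 and -0.07. With the pup number as a replicate block 11 genes were called, and the signs of Cox4i1 (-0.0291), Atp5b (-0.0003) and Atp5o (-0.0248) turned.

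Signs also turned in other settings, and not only for values near 0 or with wide intervals. Among those that turned, the main fit gave 0.15 for Uqcrb (95% interval -0.02 to 0.33) and 0.13 for Cox6a1 (-0.14 to 0.40). With cage by the second labels the log2 fold changes were 0.50 for mt-Nd6, -0.12 for Ndufa4, -0.0114 for Uqcrb, -0.024 for Uqcrq, -0.16 for Cox6a1, -0.0567 for Cox6b1, -0.0157 for Cox4i1, -0.0309 for Atp5c1, -0.0407 for Atp5b and -0.14 for Atp5o. With cage by title they were 0.29 for mt-Nd6, 0.0911 for Cycs and -0.0145 for Atp5a1, and against the cage mate alone 0.29, 0.0916 and -0.0141. Without the filter they were -0.0022 for Atp5o and -0.0047 for Atp5a1. With a pup left out they ran from -0.61 to 0.14 for mt-Nd6, -0.36 to 0.0095 for Cycs, -0.0279 to 0.0516 for Cox4i1, -0.0229 to 0.0393 for Atp5b, -0.0391 to 0.0602 for Atp5o and -0.0107 to 0.015 for Atp5a1.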

Other observations

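Sharing of sequence was also looked up for 37 further subunit genes with a row, which are nuclear and ubiquitous except for a few tissue forms, and which were chosen for this after their levels were seen. For 23 of them no stretch of 100 bases occurred in another annotated transcript. The 2 with the largest shared part were Atp5g2, a gene of the ATP synthase c ring, at 86.4% and Atp5l, a gene of the membrane part of the ATP synthase, at 69.0%. Atp5g2 had 38.8 CPM per kb in KO and 34.3 CPM per kb in WT. Atp5l had 3.14 CPM per kb in KO and 4.55 CPM per kb in WT, whereas Atp5e, a subunit gene of the same complex with no shared stretch, had 140.0 CPM per kb in KO and 148 CPM per kb in WT. Sharing and level did not go together throughout. Ndufs5 of complex I, with 19.8% shared, had 0.240 CPM per kb in KO and 0.247 CPM per kb in WT, and Ndufb4, with 33.4%, had 5.17 CPM per kb in KO and 4.44 CPM per kb in WT. Atp5h of the ATP synthase, with 32.7%, had 197 CPM per kb in KO and 206 CPM per kb in WT. Why these levels differ was not tested.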
